A study of Mus musculus with 12 samples.

Results

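The 10 genes described here carry glucose into the adipocyte and decide whether the pyruvate made from it becomes lactate or enters the mitochondrion: *Slc2a4*, *Slc2a1*, *Hk1*, *Hk2*, *Pfkfb3*, *Ldha*, *Ldhb*, *Pdha1*, *Pdk2* and *Pdk4*. They were chosen by name for these roles, with earlier results of these data known, out of 14709 named genes with a tested probe. All 10 were measured, by 14 of the 32118 tested probes, and all 14 were well above background on each of the 12 arrays. RNA of subcutaneous white adipose tissue (scWAT) and brown adipose tissue (BAT) from WT and *Lr11*-/- mice was hybridised to one-colour Agilent mouse arrays, where labelled cRNA lights up the spots it binds to, with 3 arrays in each of the 4 groups. *Lr11*-/- mice lack the sorting receptor LR11, encoded by *Sorl1*, in the whole body, and were set against WT littermates. All 4 groups were C57Bl6/J males of 12 weeks that freely ate a high fat diet (HFD) of 60% fat. The labels date the HFD both from weaning and as 4 weeks, so its length is not settled. The methods describe the array samples as 3 mice per genotype and tissue, and the number of arrays limits the precision of every value.

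Glucose crosses the plasma membrane through GLUT4, the insulin-responsive transporter encoded by *Slc2a4*, and through GLUT1, the transporter of basal uptake encoded by *Slc2a1*. Hexokinases trap it as glucose 6-phosphate, PFKFB3 makes the fructose 2,6-bisphosphate that drives glycolysis forward, and lactate dehydrogenase interconverts pyruvate and lactate. The pyruvate dehydrogenase complex instead turns pyruvate into acetyl-CoA for oxidation, and is switched off when pyruvate dehydrogenase kinases phosphorylate its E1 alpha subunit, encoded by *Pdha1*.

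A level is the log2 of the intensity minus the log2 of the 75th percentile of its array, which puts 0 at that percentile. Tests used limma, p values were adjusted over all tested probes, and a call is an adjusted p under 0.05. *Sorl1* itself had a mean level of 1.01 in WT and -3.33 in *Lr11*-/- scWAT, and of 0.68 and -2.95 in BAT. Its genotypes did not overlap in either tissue (log2 differences of -4.34, adjusted p = 0.0063, and -3.63, adjusted p = 0.033, limma). The arrays of a group differed in more than these genes. The 6 brown adipocyte markers, read as the log2 of their summed level, were between 11.35 and 11.79 on the BAT arrays, at 8.63, 11.70 and 11.83 on *Lr11*-/- scWAT, and at 4.52, 0.84 and 8.03 on WT scWAT replicates 1 to 3. All 11 skeletal muscle markers were well above background on 5 arrays, WT scWAT replicate 3, *Lr11*-/- scWAT replicate 1, WT BAT replicates 1 and 3 and *Lr11*-/- BAT replicate 1, where their summed level was 9.46 to 12.09. On the other 7 arrays 4 to 7 of them were, with a summed level of 0.83 to 2.14. WT scWAT replicate 2 had the lowest adipocyte marker level, 8.49 against 9.79 to 10.85 on the other 11 arrays, and the highest macrophage marker level, 7.43 against 4.19 to 5.87. In bulk tissue fewer cells of a type and less RNA per cell cannot be told apart.

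**Figure D1:**
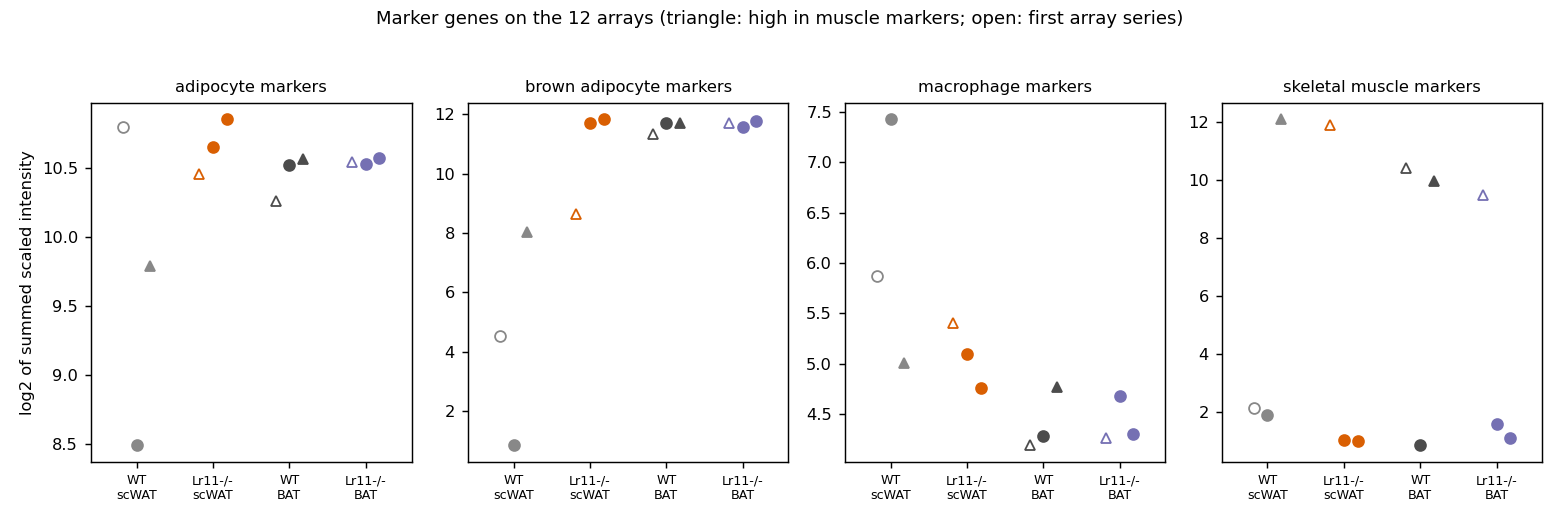
Log2 of the summed scaled intensity of 4 marker lists (y axes) on the 3 arrays of each group (x axes). Triangles are the 5 arrays high in skeletal muscle markers and open symbols are arrays of the first array series. The brown markers of WT scWAT spread from 0.84 to 8.03, and those of BAT stay between 11.35 and 11.79.

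In scWAT, the mean level of 9 of the 10 genes was higher in *Lr11*-/- and that of *Slc2a1* was lower. Only *Pdha1* passed the threshold. Over all tested probes 5.08% were called in this comparison, so 1 gene of 10 is near the background. The median log2 difference of the 10 genes was 2.16, and that of all tested probes was 0.041. Genotypes did not overlap for *Slc2a1*, *Pdha1* and *Pdk2*, 3 of 10, where 20.4% of all probes did not overlap. At an unadjusted p under 0.05, 7 of the 10 genes differed (all but *Slc2a4*, *Hk1* and *Pfkfb3*), as did 27.6% of all probes.

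*Pdha1*, the catalytic E1 alpha subunit of the complex, had levels of 3.03, 1.77 and 4.15 on WT scWAT replicates 1 to 3 and of 4.26, 6.01 and 6.21 on *Lr11*-/- scWAT replicates 1 to 3. The highest WT array and the lowest *Lr11*-/- array, both high in muscle markers, lay close together. Mean levels were 2.98 ± 1.19 for WT and 5.49 ± 1.07 for *Lr11*-/- (SD, n = 3 each), and the log2 difference was 2.51 (SE 0.59, 95% interval 1.20 to 3.82, adjusted p = 0.044, limma). In BAT the levels were 6.26, 6.53 and 6.01 in WT and 6.39, 6.41 and 6.43 in *Lr11*-/-, above every scWAT array except *Lr11*-/- scWAT replicate 3, which was within the BAT range. *Lr11*-/- scWAT replicate 2 was just under the lowest BAT array.

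The kinases that switch the complex off were read from *Pdk2*, the widely expressed form, and *Pdk4*, the form induced by fasting and fatty acids. *Pdk2* had levels of 1.08, -0.22 and 4.24 on WT scWAT replicates 1 to 3 and of 4.25, 4.37 and 4.55 on *Lr11*-/- scWAT. All 3 *Lr11*-/- arrays were above all WT arrays, but WT replicate 3 fell short of the lowest of them by less than the spread among the *Lr11*-/- arrays. The log2 difference was 2.69 (SE 0.83, adjusted p = 0.077, limma). *Pdk4* was at 2.46, 2.20 and 7.79 on WT scWAT replicates 1 to 3, at 7.18, 7.80 and 8.42 on *Lr11*-/- scWAT, at 7.55, 7.73 and 7.85 on WT BAT and at 7.76, 7.87 and 8.10 on *Lr11*-/- BAT. WT scWAT replicates 1 and 2 thus stood far below the other 10 arrays, and replicate 3 among them. The log2 difference in scWAT was 3.65, the highest of the 10 genes, with the second-largest SE, 1.15 (adjusted p = 0.081, limma).

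The 3 promoter windows below belong to the genes whose genotypes did not overlap in scWAT, *Pdha1*, *Pdk2* and *Slc2a1*. They run from 250 bases before to 50 bases from the annotated start on, 5′ to 3′ on the strand of the gene, from RefSeq on assembly GRCm38.p6. The first is chrX:160138381-160138680 (minus strand), the second chr11:95041322-95041621 (minus strand, one of the starts of *Pdk2*) and the third chr4:119108495-119108794 (plus strand). Capitals mark the E-box CACGTG, the hypoxia response core ACGTG, which lies within the E-box, and the GC box GGGCGG, on either strand.
Pdha1: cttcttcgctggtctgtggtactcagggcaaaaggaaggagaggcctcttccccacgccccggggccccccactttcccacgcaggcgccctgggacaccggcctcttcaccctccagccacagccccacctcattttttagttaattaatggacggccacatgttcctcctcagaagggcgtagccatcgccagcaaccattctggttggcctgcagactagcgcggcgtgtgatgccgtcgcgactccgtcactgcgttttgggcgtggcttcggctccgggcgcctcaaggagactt
Pdk2: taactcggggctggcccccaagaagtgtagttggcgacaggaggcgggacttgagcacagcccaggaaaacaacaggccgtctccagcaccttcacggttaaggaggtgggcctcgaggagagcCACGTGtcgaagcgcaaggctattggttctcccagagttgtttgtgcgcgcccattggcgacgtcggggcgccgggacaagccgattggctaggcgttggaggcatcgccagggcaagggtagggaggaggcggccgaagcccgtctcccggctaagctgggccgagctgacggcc
Slc2a1: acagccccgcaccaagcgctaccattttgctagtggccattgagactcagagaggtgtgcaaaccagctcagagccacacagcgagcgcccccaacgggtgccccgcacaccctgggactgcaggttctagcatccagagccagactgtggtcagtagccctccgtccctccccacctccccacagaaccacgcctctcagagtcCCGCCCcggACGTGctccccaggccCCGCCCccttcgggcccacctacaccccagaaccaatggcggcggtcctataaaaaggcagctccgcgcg
Windows were found for 9 of the 10 genes, 13 in all, and not for *Slc2a4*. CACGTG was in 3 of the 13, of *Pfkfb3*, *Ldha* and *Pdk2*, and in 7.15% of the 32851 windows of the whole table. ACGTG was in 7 windows of 6 genes (19.6% of all windows) and GGGCGG in 5 windows of 4 genes (35.7%). The nuclear receptor half-site AGGTCA was in the window of *Ldhb* alone (16.3% of all windows). The estrogen-related receptor element TNAAGGTCA (1.28% of all windows) and the forkhead core TGTTTAC (3.65%) were in none of the 13. These letter matches are a description of the windows.

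Of the transporters, *Slc2a4* had levels of 4.87, -0.44 and 6.24 on WT scWAT replicates 1 to 3 and of 5.99, 6.63 and 6.34 on *Lr11*-/- scWAT. WT replicate 2 was far below every other array, WT replicate 3 was inside the *Lr11*-/- range, and the SD was 3.53 in WT against 0.32 in *Lr11*-/- (n = 3 each). The log2 difference of 2.76 therefore had an SE of 1.28 and was not called (adjusted p = 0.19, limma). This probe has 10 spots on the array, of which 8 to 10 were used per array, and the SD between spots was 0.043 to 0.100 on the log2 scale. The difference between arrays was thus far larger than the difference between spots.

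*Slc2a1* ran the other way. It was at 1.0, 3.81 and 1.75 on WT scWAT replicates 1 to 3, at 0.90, 0.46 and -0.07 on *Lr11*-/- scWAT, and between -0.10 and 0.58 on the 6 BAT arrays. WT scWAT replicate 2, lowest of all arrays in *Slc2a4*, was the highest in *Slc2a1*, while WT replicate 1 was near the highest *Lr11*-/- array. Its log2 difference in scWAT was -1.76 (SE 0.58, adjusted p = 0.089, limma). The macrophage marker level was also highest on WT scWAT replicate 2, at 5.87, 7.43 and 5.0 on WT scWAT replicates 1 to 3. On *Lr11*-/- scWAT it was at 5.40, 5.10 and 4.75, so the genotypes overlapped in it. Replicates 1 and 3 of WT scWAT were in the opposite order to *Slc2a1*. The part of macrophages in the *Slc2a1* difference was not tested.

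Neither hexokinase was called in scWAT. *Hk2*, the insulin-regulated form of muscle and fat, was at 2.49, 0.78 and 2.84 on WT scWAT and at 2.79, 4.51 and 4.25 on *Lr11*-/- scWAT, with a log2 difference of 1.82 (SE 0.61, adjusted p = 0.093, limma). *Hk1*, the form most cells use, was at 1.97, 3.59 and 2.14 on WT and at 1.62, 3.76 and 3.88 on *Lr11*-/- scWAT, with a log2 difference of 0.52 (SE 0.57, adjusted p = 0.59, limma). In *Hk1* each genotype had arrays at both ends of the range, and its other probe gave 0.75 (SE 0.40, adjusted p = 0.25, limma).

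*Pfkfb3* was at 6.56, 3.11 and 4.94 on WT scWAT and at 6.24, 6.14 and 5.85 on *Lr11*-/- scWAT, so that the WT group held both the highest and the lowest array. Its log2 difference was 1.21 (SE 0.66, adjusted p = 0.26, limma), or 1.06 (SE 0.55) on its other probe.

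Neither subunit of lactate dehydrogenase was called in scWAT. *Ldha*, whose M subunit prevails where pyruvate is reduced to lactate, was at 7.91, 7.18 and 8.75 on WT scWAT and at 8.75, 8.89 and 8.90 on *Lr11*-/- scWAT. Its log2 difference was 0.90 (SE 0.33, adjusted p = 0.11, limma), and its other probes gave 1.20 and 1.30. *Ldhb*, whose H subunit prevails in oxidative tissue, was at 3.74, 1.19 and 5.31 on WT scWAT and at 4.34, 6.74 and 6.70 on *Lr11*-/- scWAT. WT replicate 3 was above *Lr11*-/- replicate 1, and the log2 difference of 2.51 (SE 0.90) had an adjusted p of 0.11 in limma.

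**Figure D2:**
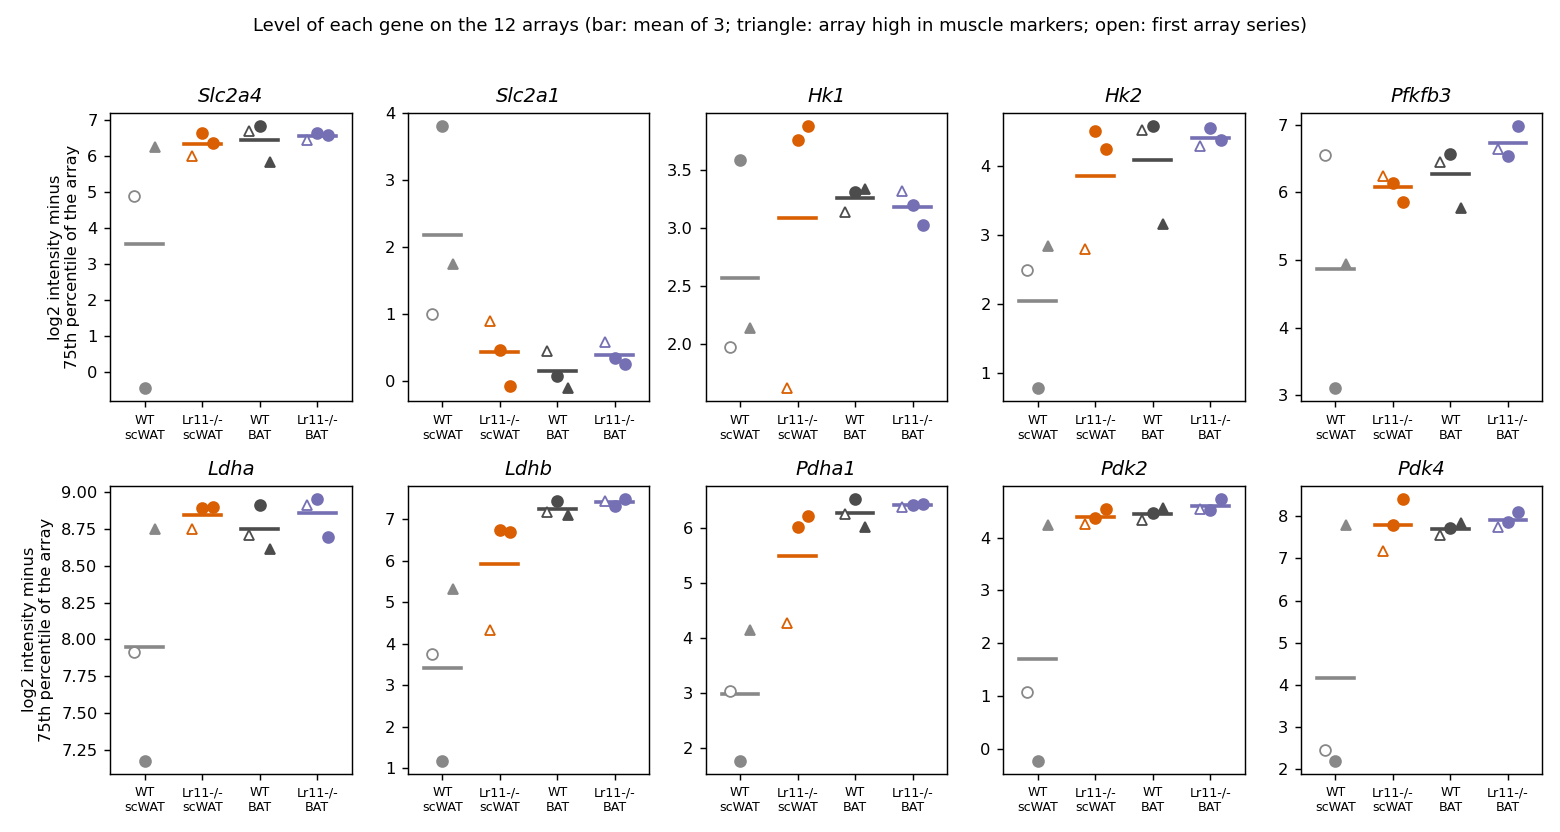
Level of each of the 10 genes (y axes, log2 intensity minus the 75th percentile of the array; the ranges differ between panels) on the 3 arrays of each group (x axes), with the group mean as a bar. Triangles are arrays high in skeletal muscle markers and open symbols arrays of the first series. WT scWAT is the most scattered group in 9 of the 10 panels, all but that of *Hk1*, and the 6 BAT arrays lie close together in most.

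In BAT none of the 10 genes was called between the genotypes. Log2 differences lay between -0.08 (*Hk1*) and 0.46 (*Pfkfb3*), with 9 of 10 above 0, and all adjusted p values were 1 in limma. At an unadjusted p under 0.05 the count was 0 of 10 as well. Of all tested probes 0.0125% were called, and 2.11% had an unadjusted p under 0.05. No gene had genotypes that did not overlap, which 12.0% of all probes had. The spread shared by the 4 groups is widened by WT scWAT, so the intervals are wide: that of *Pdha1* ran from -1.17 to 1.46, that of *Ldha* from -0.62 to 0.83 and that of *Slc2a4* from -2.72 to 2.94. The difference between the 2 tissues in the effect of genotype was called for 0 of the 10 genes and for 0% of all probes (limma). The unadjusted p was under 0.05 for *Pdha1* (2.37, adjusted p = 0.40 in limma) and *Slc2a1* (-2.01, adjusted p = 0.42 in limma), and for 11.0% of all probes. A genotype effect limited to scWAT was thus not shown. When WT scWAT replicate 3 was left out, *Pdk2* and *Pdk4* were called in this comparison of the tissues, 2 of 10, with 0.735% of all probes. Leaving out the 2 arrays high in epithelial markers was chosen after the data were seen. *Ldhb*, *Pdha1*, *Pdk2* and *Pdk4* were then called in it, 4 of 10, with 9.36% of all probes.

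Between the tissues of WT mice 6 of the 10 genes were called, 5 higher in BAT and *Slc2a1* lower, where 24.7% of all probes were called, 15.5% higher and 9.14% lower. *Ldhb* was higher by 3.81 on the log2 scale (SE 0.90, adjusted p = 0.014), *Pdk4* by 3.56 (SE 1.15, adjusted p = 0.046), *Pdha1* by 3.28 (SE 0.59, adjusted p = 0.0058), *Pdk2* by 2.75 (SE 0.83, adjusted p = 0.036) and *Hk2* by 2.05 (SE 0.61, adjusted p = 0.033, all limma). *Slc2a1* was lower in BAT, with a log2 difference of -2.04 (SE 0.58, adjusted p = 0.028, limma). Not called were *Slc2a4* (2.88, adjusted p = 0.12), *Pfkfb3* (1.39, 0.14), *Ldha* (0.80, 0.095) and *Hk1* (0.70, 0.39). Arrays of the tissues did not overlap for 5 of the 10 genes, all called genes but *Pdk4*, whose WT scWAT replicate 3 lay among the BAT arrays. Of all probes 40.2% did not overlap. With an unadjusted p under 0.05 were 8 of the 10 genes, all but *Hk1* and *Pfkfb3*, and 40.0% of all probes. The count of 6 became 3 when WT scWAT replicate 2 was left out, 2, 1 and 3 when replicate 1, 2 or 3 of WT BAT was, and 1 with slide as a block, and *Pdha1* was called each time. The share of all probes called fell as well, from 24.7% to 16.3%, then 12.0%, 9.96% and 16.8%, and 12.3% with slide as a block.

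This comparison and that of the genotypes in scWAT share the 3 WT scWAT arrays, so like differences in both are in part the same data. Side by side, the log2 difference of *Lr11*-/- from WT scWAT and of WT BAT from WT scWAT were 2.51 and 3.28 for *Pdha1*, 3.65 and 3.56 for *Pdk4*, 2.69 and 2.75 for *Pdk2*, and -1.76 and -2.04 for *Slc2a1*.

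Between the tissues of *Lr11*-/- mice 0 of the 10 genes were called in limma, with 0 at an unadjusted p under 0.05, where 0.0405% and 8.97% of all probes were. Log2 differences ran from -0.04 for *Slc2a1* to 1.48 for *Ldhb* (95% interval -0.51 to 3.47). *Ldhb*, *Pdha1* (0.91) and *Pfkfb3* (0.65) were higher on every BAT array than on every scWAT array, 3 of 10, as were 13.9% of all probes. In the order of the group means WT scWAT was the lowest for 9 genes and the highest for *Slc2a1*. Mean levels of *Lr11*-/- scWAT and WT BAT were not separated for any of the 10 genes (log2 differences of -0.29 to 1.30, adjusted p of 0.78 to 0.99, limma), which does not show them to be equal.

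**Figure D3:**
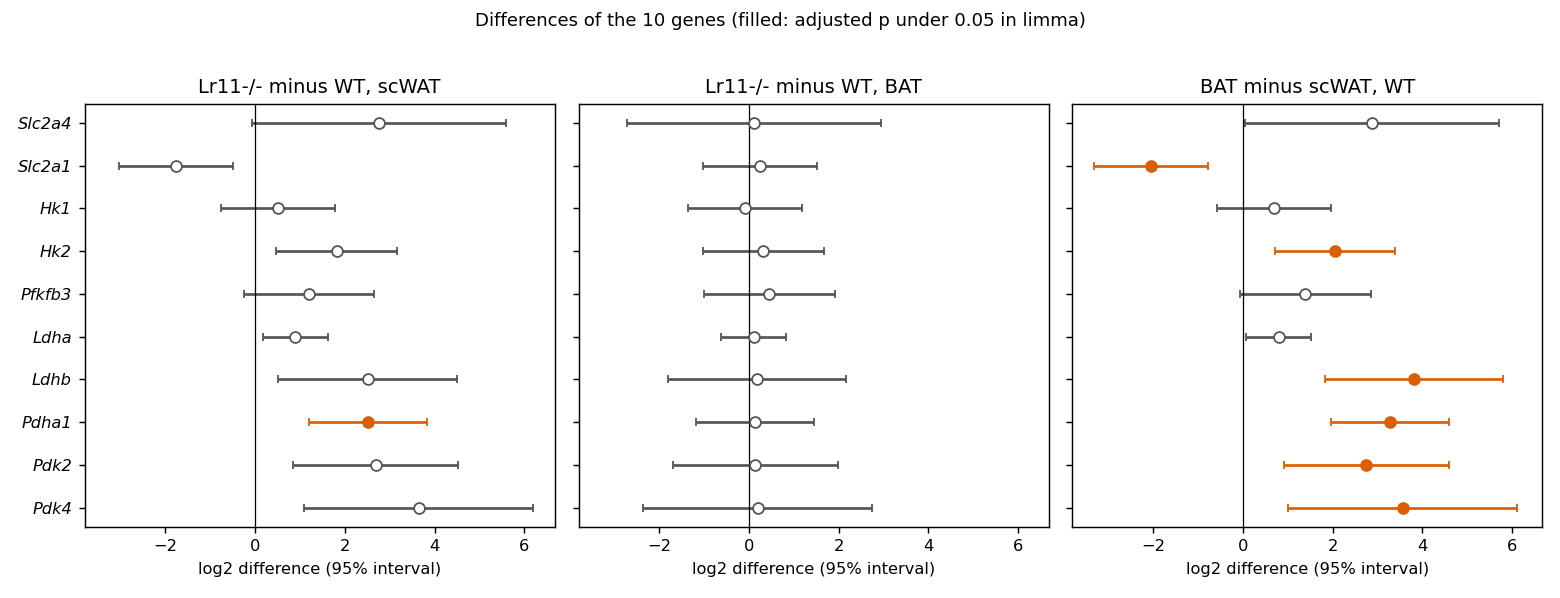
Log2 difference (x axes) of each of the 10 genes with its 95% interval from limma, for *Lr11*-/- minus WT in scWAT and in BAT and for BAT minus scWAT in WT. Filled symbols are called: *Pdha1* in the first panel, none in the second and 6 genes in the third.

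The enzymes and regulators around these 10 genes were read from 6 further lists of 63 genes, of which 57 had a tested probe. In scWAT 5 of the 57 were called higher and 4 lower in *Lr11*-/-, with a median log2 difference of 1.0. Of all tested probes 5.08% were called in this comparison. None of the 57 was called in BAT or in the interaction, where 0.0125% and 0% of all probes were. Their medians there were 0.10 and 0.95. Between WT tissues 23 of the 57 were called higher and 8 lower in BAT, against 15.5% and 9.14% of all probes.

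The rest of the pyruvate dehydrogenase system held 2 of the 5 rises and 1 of the 4 falls. *Dlat*, the E2 core of the complex, was higher in *Lr11*-/- scWAT by 2.57 on the log2 scale (SE 0.62, adjusted p = 0.046, limma). *Pdp2*, the phosphatase that switches the complex back on, was at 0.23, -1.15 and -0.73 on WT and at 0.81, 2.63 and 2.60 on *Lr11*-/- scWAT, a log2 difference of 2.56 (SE 0.48, adjusted p = 0.033, limma). *Pdk3*, a kinase of the same family as *Pdk2* and *Pdk4*, fell, from -0.76, -0.26 and -1.23 on WT to -1.62, -2.48 and -2.62 on *Lr11*-/- scWAT (log2 difference -1.49, SE 0.31, adjusted p = 0.038, limma).

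Of the 11 tested genes of this list, 5 were higher and 1 lower in *Lr11*-/- scWAT without overlap of the genotypes. Genotypes did not overlap for 20.4% of all probes. Among the genes without overlap were *Dlat*, *Pdk3* and *Pdp2*, which had both of its probes called (2.56 and 2.27). Other parts of the complex, *Pdhb* (2.41, adjusted p = 0.060), *Dld* (2.18, 0.060) and *Pdhx* (1.34, 0.11), did not pass the threshold. Nor did *Ldhd*, which oxidises D-lactate (2.56, 0.075), the kinase *Pdk1* (0.99, 0.074) or the phosphatase *Pdp1* (-0.50, 0.48). The carriers that bring pyruvate into the mitochondrion, *Mpc1* (1.99, 0.081) and *Mpc2* (2.06, 0.093), were also not called, and 0 of the 6 lactate and pyruvate carriers were. The lowest of these carriers were *Slc16a3* (-2.70, 0.34) and *Slc16a7* (-1.05, 0.50).

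**Figure D4:**
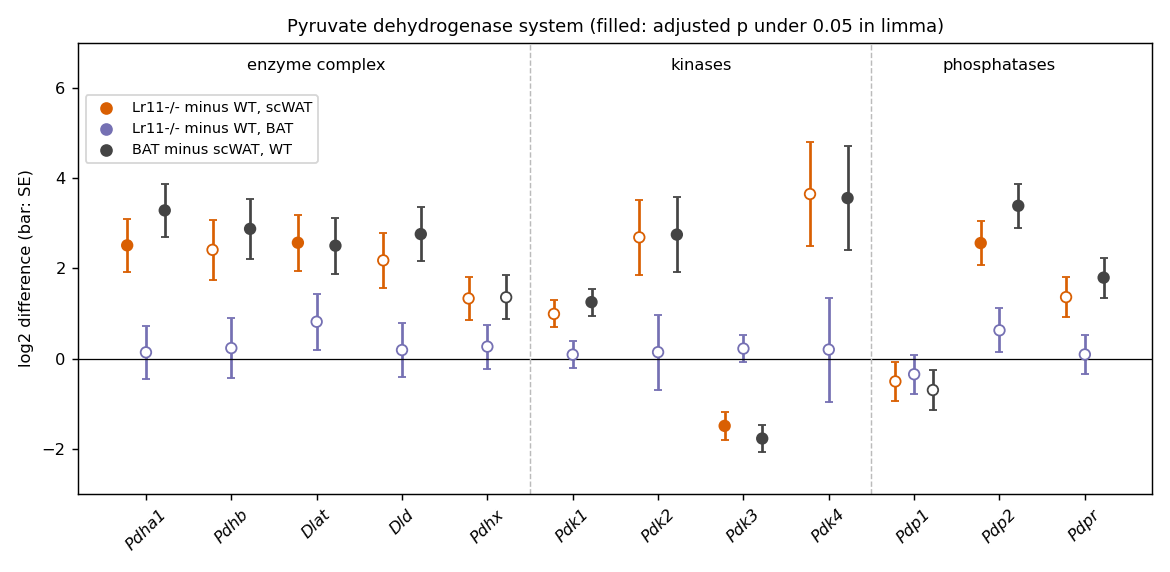
Log2 difference (y axis, bars are the SE from limma) of 12 genes of the pyruvate dehydrogenase system in 3 comparisons, with the enzyme complex, its kinases and its phosphatases side by side. Filled symbols are called. In scWAT *Pdha1*, *Dlat* and *Pdp2* are called higher and *Pdk3* lower, and no gene is called between the genotypes in BAT.

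Among the other transporters the fructose carrier *Slc2a5* was not well above background on any WT scWAT array and was at -3.88, 2.51 and 2.69 on *Lr11*-/- scWAT, at least 38.6-fold higher (measured means -5.99 and 0.44, adjusted p = 0.046, limma). *Slc2a10* fell by 2.01 on the log2 scale (SE 0.46, adjusted p = 0.043, limma). *Slc2a6* (-2.04, adjusted p = 0.057) and *Slc2a8* (0.31, 0.51) were not called.

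Of 17 glycolytic enzymes *Pgk1*, which makes the first ATP of glycolysis, was called, at 4.76, 5.64 and 6.44 on WT and 6.80, 7.24 and 7.42 on *Lr11*-/- scWAT (1.54, SE 0.36, adjusted p = 0.044, limma). At the ends of that list *Pfkl* (2.94, adjusted p = 0.076), *Pgam1* (1.84, 0.16), *Hk3* (-1.75, 0.26) and *Eno2* (-1.59, 0.087) were not called. *Pfkfb4*, a relative of *Pfkfb3*, fell by 2.09 on the log2 scale (SE 0.51, adjusted p = 0.047, limma), while *Pfkfb1* (1.56, 0.19), *Tigar* (1.18, 0.11) and *Pfkfb2* (-0.81, 0.16) were not called.

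Of the regulators, *Ppargc1a*, the coactivator of mitochondrial biogenesis, was at -1.66, -2.89 and 0.32 on WT and at 0.99, 4.49 and 3.80 on *Lr11*-/- scWAT (4.50, SE 0.91, adjusted p = 0.037, limma), and its other probe gave 3.95. *Arrdc4*, an arrestin-like protein related to the uptake inhibitor TXNIP, fell by 1.54 on the log2 scale (SE 0.26, adjusted p = 0.026, limma), whereas *Txnip* itself was not called (1.29, adjusted p = 0.089). The other probe of *Arrdc4* was not called (-0.92, adjusted p = 0.081). *Ppara* (4.76, adjusted p = 0.0503) and *Tbc1d1* (-0.88, 0.14) also missed the threshold.

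The scWAT differences moved with the arrays used. Leaving out WT scWAT replicate 3 raised the count of called genes among the 10 to 7, and leaving out replicate 1 of either genotype raised it to 3. The share of all probes called rose as well, from 5.08% to 14.3% without WT replicate 3, 13.7% without WT replicate 1 and 19.7% without *Lr11*-/- replicate 1. The count fell to 0 when replicate 2 of either genotype, replicate 3 of *Lr11*-/- scWAT or any BAT array was left out, with 0.00934% to 0.685% of all probes called. Without WT scWAT replicate 2, which was low in adipocyte markers and high in macrophage markers, the log2 difference of *Slc2a4* was 0.76 in place of 2.76, that of *Pfkfb3* 0.33 in place of 1.21, that of *Slc2a1* -0.95 in place of -1.76, and that of *Pdha1* 1.90 (adjusted p = 0.11, limma). Without the 5 arrays high in muscle markers, which left 2 arrays of each genotype in scWAT, *Hk2*, *Ldhb*, *Pdha1*, *Pdk2* and *Pdk4* were called, with log2 differences of 2.75, 4.25, 3.71, 4.03 and 5.78, and 11.1% of all probes were. Skeletal muscle expresses most of these genes too, and the part of muscle RNA in the differences was not tested. Without the 2 arrays that were also high in epithelial markers 7 of the 10 were called, and 26.1% of all probes. All 10 genes kept the sign of their scWAT difference in each of 23 alternative settings.

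Of the wider lists, 5 higher and 4 lower genes became 15 and 4, 0 and 1, or 19 and 8 when replicate 1, 2 or 3 of WT scWAT was left out, and 20 and 9, 0 and 0, or 0 and 0 when replicate 1, 2 or 3 of *Lr11*-/- scWAT was. They became 22 and 8 without the 5 arrays high in muscle markers, where 11.1% of all probes were called. No gene was called higher with any BAT array left out, and only *Arrdc4* lower in some of these fits. None was called with no filter on dim probes or in a fit to the groups compared alone. The share of all probes called was 13.7%, 0.685% and 14.3% without WT scWAT replicates 1 to 3. It was 19.7%, 0.0872% and 0.00934% without those of *Lr11*-/- scWAT, and 0.455% to 0.582% without a BAT array. The brown adipocyte markers were also higher in *Lr11*-/- scWAT by their means. This held for all 6, and 3 of them were called, as were 5.08% of all probes. Among the 3 was *Ucp1*, the uncoupling protein of brown fat, at -4.62, -4.52 and 2.92 on WT and at 4.39, 9.75 and 10.05 on *Lr11*-/- scWAT. Not all of the 10 genes followed these markers from array to array. Their summed level was lowest on WT scWAT replicate 2. *Slc2a4*, *Hk2*, *Pfkfb3*, *Ldha*, *Ldhb*, *Pdha1*, *Pdk2* and *Pdk4* were at their lowest of all arrays there too. On that array *Slc2a1* was at its highest and *Hk1* at its highest among WT scWAT. The part of brown-type adipocytes, or of adipocytes as a whole, in the differences of the 10 genes was not tested.

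**Figure D5:**
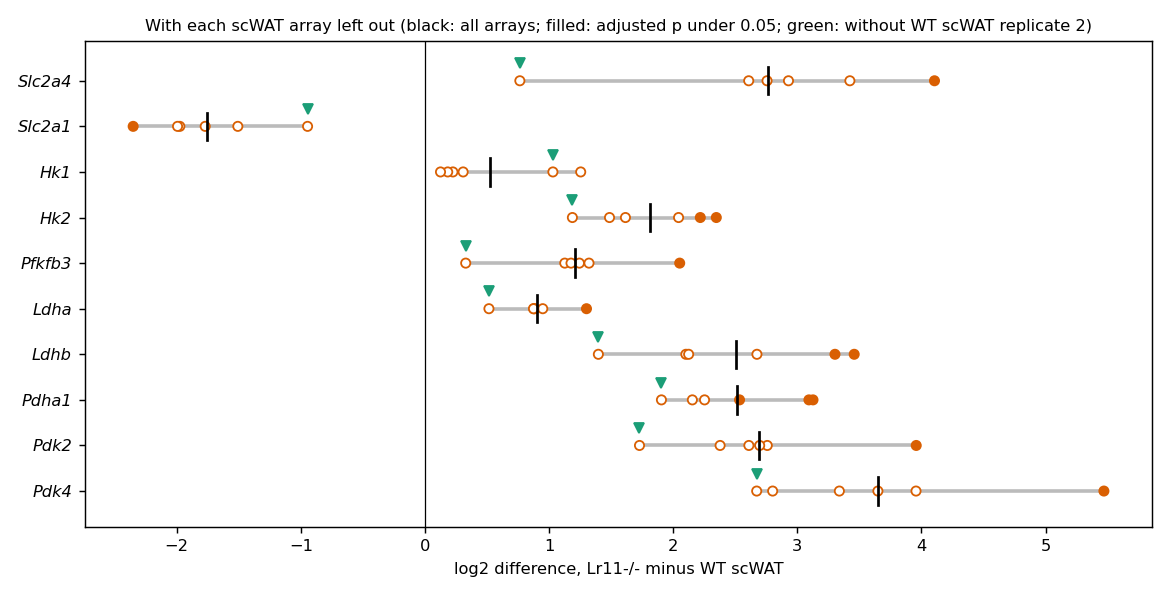
Log2 difference of *Lr11*-/- minus WT scWAT (x axis) for the 10 genes, with all arrays (black line) and with each of the 6 scWAT arrays left out (circles, filled where called in limma). The green triangle marks the value without WT scWAT replicate 2, which is the nearest to 0 for 9 genes, all but *Hk1*.

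By array series, the log2 differences of the second series (replicates 2 and 3) and of the first (replicate 1) both lay above 0 for *Pdha1* (3.15 and 1.23), *Pdk2* (2.45 and 3.17), *Pdk4* (3.11 and 4.72), *Ldha* (0.93 and 0.84), *Ldhb* (3.47 and 0.59), *Slc2a4* (3.59 and 1.12) and *Hk2* (2.57 and 0.30). They had opposite signs for *Pfkfb3* (1.97 and -0.32) and *Hk1* (0.96 and -0.35). *Slc2a1* was lower in both (-2.59 and -0.10). In the first series each group is 1 array, so these pairs have no replicate check. Arrays of the first series lay on a slide for each tissue and all others on the third slide, and with slide as a block the adjusted p of *Pdha1* in scWAT was 0.059 (limma).

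Which genes ran most like each of these genes over the 12 arrays was measured by the root mean square difference between log2 values, each gene centred on its own mean. Over the same arrays the SD of the 10 genes was 0.53 (*Ldha*) to 2.15 (*Pdk4*). *Pdha1* ran closest to *Ndufs1* (0.14) and *Ndufv1* (0.15), which encode subunits of respiratory complex I. *Ldhb* ran closest to *Mtfp1* (0.29) and *P2rx5* (0.35), and *Hk2* to *Stradb* (0.30) and *Cox10* (0.31). *Pfkfb3* ran closest to the water channel *Aqp1* (0.30) and *Abhd15* (0.32). *Slc2a1* ran closest to *B4galt5* (0.25) and *Terc* (0.26), *Hk1* to *Cnnm1* (0.25) and *Htra2* (0.28), and *Ldha* to *Dcun1d2* (0.15) and *Chchd1* (0.15). *Macrod1* (0.28) and *Tarsl2* (0.37) were nearest to *Pdk2*, and *Me3* (0.46) and *Fn3k* (0.58) to *Pdk4*. These likenesses come from the same 12 arrays and groups and are a description.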

How the data were processed

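RNA of scWAT and BAT was measured on 12 one-colour Agilent arrays. The authors deposited spot intensity values from Feature Extraction 10.10.1.1, background-subtracted and detrended within each array, not normalized between arrays and not on a log scale. The deposited table of the whole series held the same intensity values (largest difference 0). Groups came from the source labels. Replicates 1 to 3 are names, replicate 1 being the array of the first array series.

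Of 62976 features, 59305 were no controls and covered 55681 probes. Outlier spots, 128 to 181 on an array, were dropped, log2 values of a probe's spots were averaged, and each array's 75th percentile (an intensity of 372 to 629) was subtracted. An array had 32377 to 37002 spots well above background and 0 saturated ones. A probe was tested if some group had it well above background on its 3 arrays (32118 probes). Symbols came from the files' accessions matched to a RefSeq gene table of GRCm38.p6 (27235 of 28685 probes). The arrays were designed on another assembly, so that table gave names only.

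One fit in limma 3.58.1 (R 4.3.3, data.table version 1.17.8) had a mean for each of the 4 groups, and calls were at a Benjamini-Hochberg adjusted p under 0.05. A gene was read from its brightest tested probe. Missing values (26) were left missing. In the wider lists every gene called between genotypes and the 2 highest and 2 lowest in scWAT were named. A fold over a group not well above background is a lower bound, each dim array being raised to the lowest signal well above background on it. The 10 genes, the lists and the tests were chosen with earlier results of these data known. P values measure the spread between these arrays. Figures were drawn with matplotlib 3.10.9. Alternatives were quantile normalization, other filters on dim probes, array series or slide as a block, only the groups compared, the second array series alone, the mean of all probes of a gene and each array left out. Chosen after the data were seen were normexp on the median signals and leaving out arrays high in muscle or epithelial markers. The genes nearest to *Slc2a4* over the arrays are not reported here.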

Additional observations from a re-analysis of the deposited data

How the results depend on the processing

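The 10 genes kept the sign of their difference between genotypes in scWAT in all 23 alternatives, and *Pdha1* was called in 11 of them (log2 difference 1.90 to 3.71, adjusted p 0.00058 to 0.32 in limma). Between WT tissues *Pdha1* was called in all 23. Counts are given below as called genes of the 10 and called probes, against 1 and 1632 between genotypes in scWAT, 0 and 4 in BAT, 0 and 0 in the interaction, 6 and 7921 between WT tissues and 0 and 13 between *Lr11*-/- tissues.

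With no filter on dim probes, 55681 probes were tested. The counts were then 0 and 150 (0.269% of probes) in scWAT, 0 and 0 in BAT, and 2 and 5766 (10.4%) between WT tissues. With only probes well above background on all 12 arrays, 2 probes were called in BAT and 0 between *Lr11*-/- tissues. The array series as a block gave 0 probes in BAT. Slide as a block gave 0 and 904 in scWAT, 1 probe in BAT, 1 and 3960 between WT tissues and 8 probes between *Lr11*-/- tissues. A fit to the groups compared alone gave 0 and 0 in scWAT (4655 probes at an unadjusted p under 0.05), 27 probes in BAT and 1 and 3902 between WT tissues. The second array series alone gave 2 and 7244 in scWAT, 0 probes in BAT and 892 in the interaction. It gave 3 and 8101 (25.2% of probes) between WT tissues and 0 probes between *Lr11*-/- tissues. Normexp on the median signals, chosen after the data were seen, gave 0 probes in BAT and 2 between *Lr11*-/- tissues. Normexp on the mean signals was planned and not run, as these signals were not in the files used here.

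Without the 5 arrays high in muscle markers the counts were 5 and 3571 in scWAT, 0 probes in BAT, 1 in the interaction, 3 and 2369 between WT tissues and 1 probe between *Lr11*-/- tissues. Without the 2 arrays high in epithelial markers they were 7 and 8390 in scWAT, 24 probes in BAT, 4 and 3005 in the interaction and 79 probes between *Lr11*-/- tissues. Leaving out each array in turn gave 0 to 7 genes and 3 to 6325 probes in scWAT, 0 to 19 probes in BAT, 0 to 2 genes and 0 to 1183 probes in the interaction, 1 to 8 genes and 3198 to 10208 probes between WT tissues and 4 to 53 probes between *Lr11*-/- tissues. The cause was not tested for any of these.

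Signs that turned were those of differences that were not called. With all arrays these differences were small, except that of *Pfkfb3* in the interaction (0.75). Between *Lr11*-/- tissues *Ldha* was at -0.13 with quantile normalization, -0.028 with slide as a block, -0.068 in the second series, -0.018 as the mean of its probes and -0.027 with normexp. *Hk1* was at -0.42 with slide as a block and -0.71 in the second series, *Pdk4* at -0.39 and -0.12, and *Slc2a1* at 0.10 in the second series. Without the muscle-high arrays the same 4 genes were at -0.068, -0.71, -0.12 and 0.10, and without the 2 epithelial-high arrays at -0.039, -0.64, -0.20 and 0.20. Leaving out the muscle-high arrays left replicate 2 as the only WT BAT array. In BAT *Slc2a4* was then at -0.21, *Hk2* at -0.11, *Ldha* at -0.090, *Ldhb* at -0.032 and *Pdha1* at -0.11. With each array left out the ranges were -0.29 to 0.20 for *Slc2a1*, -0.64 to 0.49 for *Hk1*, -0.040 to 0.089 for *Ldha* and -0.20 to 0.42 for *Pdk4* between *Lr11*-/- tissues, -0.20 to 0.30 for *Slc2a4* and -0.14 to 0.57 for *Hk2* in BAT and -0.13 to 1.59 for *Pfkfb3* in the interaction.

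No paired analysis was possible because the labels carry no replicate numbers.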
